A study of Mus musculus with 374 samples.

Results

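Sca-1 is the surface protein by which the progenitor/stem cells of this study were gated, and its level still varied widely among the sorted cells. Here the 95 progenitor/stem cells that were sorted singly into the wells of plate rows K to N were ranked by their recorded Sca-1 fluorescence, and the RNA of the highest 32 wells (Sca-1-high) was compared with that of the lowest 32 (Sca-1-low). These 64 wells were taken from 374 single cells of 5 sorted populations, and the 31 wells between them (Sca-1-middle) are given alongside. All cells came from 1 female C57BL/6 mouse aged 10 to 13 weeks. The compared cells were bone marrow cells that lacked lineage antigens and carried Kit and Sca1 on their surface, so both groups had passed a Sca-1 gate. Libraries were made by an adapted CEL-seq2 protocol on 1 plate of 384 wells. Since each group is 1 sample of 1 mouse, no difference below has a replicate check and no p-value was computed.

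Sca-1 is a small glycosylphosphatidylinositol-anchored protein of the Ly6 family, encoded by Ly6a, and its gene is known to respond to interferon. Among marrow cells without lineage antigens, the combination of Sca-1 and c-Kit, the receptor for stem cell factor, encloses haematopoietic stem cells and the multipotent progenitors made from them. Stem cells in this gate are mostly quiescent, whereas multipotent progenitors cycle more, make more ribosomes and begin to transcribe lymphoid or myeloid genes at a low level, which is called lineage priming.

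The wells were chosen by their Sca-1 fluorescence, which is therefore given as a description. In arbitrary units its median was 11341 (range 7350 to 25890) for the Sca-1-high wells, 5161 (4217 to 7092) in the Sca-1-middle wells and 2865 (2123 to 4212) in the Sca-1-low wells. The ranking is continuous at both limits, since the highest Sca-1-low well had 4212 and the next well 4217, and the lowest Sca-1-high well had 7350 and the one before it 7092. Other channels moved with the ranking. Median c-Kit fluorescence was 5909 in the Sca-1-high and 6708 in the Sca-1-low wells, and 14 Sca-1-high wells against 6 Sca-1-low wells were among the 32 lowest of the 95 in c-Kit. Of the Sca-1-high wells, 20 were among the 32 highest in B220 and 18 among the 32 highest in Mac-1, against 5 and 5 of the Sca-1-low wells. The medians of the outer groups were 112.5 and 44 units for B220 and 178.5 and 99.5 units for Mac-1. All were sorted as cells without lineage antigens. No progenitor/stem well passed 157 units for B220, which every B lymphocyte well of the plate did, or 284 units for Mac-1. The part of these channels in the ranking was not tested. Cell size, read as forward scatter area, had medians of 108000 and 105000 units.

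**Figure D1:**
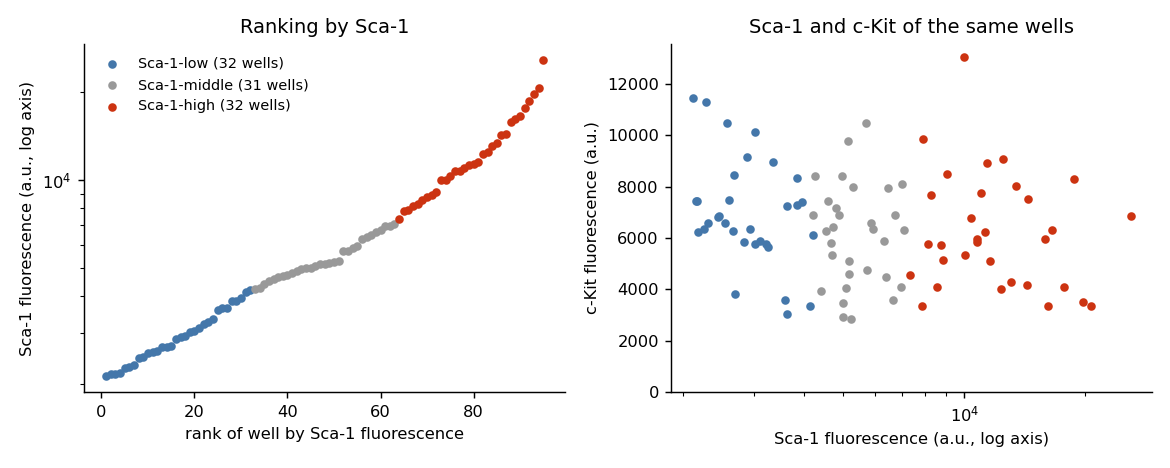
Left, Sca-1 fluorescence in arbitrary units on a log axis against the rank of each of the 95 progenitor/stem wells, coloured by group. Right, c-Kit fluorescence against Sca-1 fluorescence for the same wells; there is no gap in the ranking at either limit, and low c-Kit values occur in all groups.

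The Sca-1-high wells held 247207 unique molecules (UMIs) on mouse genes, the Sca-1-middle wells 311674 and the Sca-1-low wells 275931. A well held a median of 7416.5 UMIs (2003 to 20193) in the first group and 7773.5 (4428 to 24033) in the last. The yield against the ERCC spike-in, from the sums of each group, was 16.4 mouse UMIs per ERCC UMI in the Sca-1-high wells and 19.0 in the Sca-1-low wells. The median well was closer, at 15.8 and 16.8. Progenitor/stem identity was checked by correlating each well with the sums of the 5 populations: 31 of 32 Sca-1-high wells and 32 of 32 Sca-1-low wells were nearest to their own population. The exception was K5, the Sca-1-high well with the fewest UMIs, which was nearest to the B lymphocytes. Its correlation was 0.32 with them and 0.28 with its own population, and 0.0% of its UMIs were on B lymphocyte markers. In 4 wells, K5 and M14 (Sca-1-high), K6 (Sca-1-middle) and L11 (Sca-1-low), more than 3% of the UMIs were on 7 erythroblast markers, and counts that rest on them are given with and without these wells. Cells were sorted singly, and doublets were neither called nor tested for.

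Transcripts of Ly6a (ENSMUSG00000075602, chr15:74994877-74998031, minus strand) check the ranking, since they encode the protein that was ranked. Ly6a gave 27 UMIs in 15 of the 32 Sca-1-high wells, 24 UMIs in 16 of the 31 Sca-1-middle wells and 15 UMIs in 10 of the 32 Sca-1-low wells. No well held more than 6 of these UMIs, and the groups overlapped well by well. In CPM (the gene's share of all mouse UMIs of a group, scaled as counts per 1000000), Ly6a was at 109 in the Sca-1-high and 54.4 in the Sca-1-low wells, a log2 ratio of 1.01 (95% interval 0.04 to 2.02). Intervals here and below are exact intervals that cover counting error only, not the spread between mice. Ly6a was higher in the Sca-1-high wells of plate rows K, L and M and lower in those of row N, where the log2 ratio was -0.26. With the highest 24 wells against the lowest 24 its log2 ratio was 2.21, with 47 against 47 wells 0.36, and without wells beyond the quality limit 0.55.

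A gene was counted as measured when both groups together held at least 50 of its UMIs, which 2008 genes did, and Ly6a did not. Of these, 18 genes (0.896%) were at least 2-fold higher and 42 (2.09%) at least 2-fold lower in the Sca-1-high wells. At 1.5-fold the counts were 136 (6.77%) higher and 173 (8.62%) lower. These shares over all measured genes are the scale for the counts within gene lists below. The log2 ratio, Sca-1-high over Sca-1-low, had a median of -0.04 over all measured genes, ran from -2.67 to 1.52, and lay above 0 for 917 of them (45.7%). Without the 3 wells of these groups that stand apart by erythroblast markers, 9 of the 18 higher genes and 37 of the 42 lower genes were still past the 2-fold. K1, the Sca-1-low well with the most UMIs (24033), also carried weight: without it, 14 of the 18 and 32 of the 42 were still past it. Fewer cells with a transcript and less transcript per cell cannot be told apart in such sums.

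**Figure D2:**
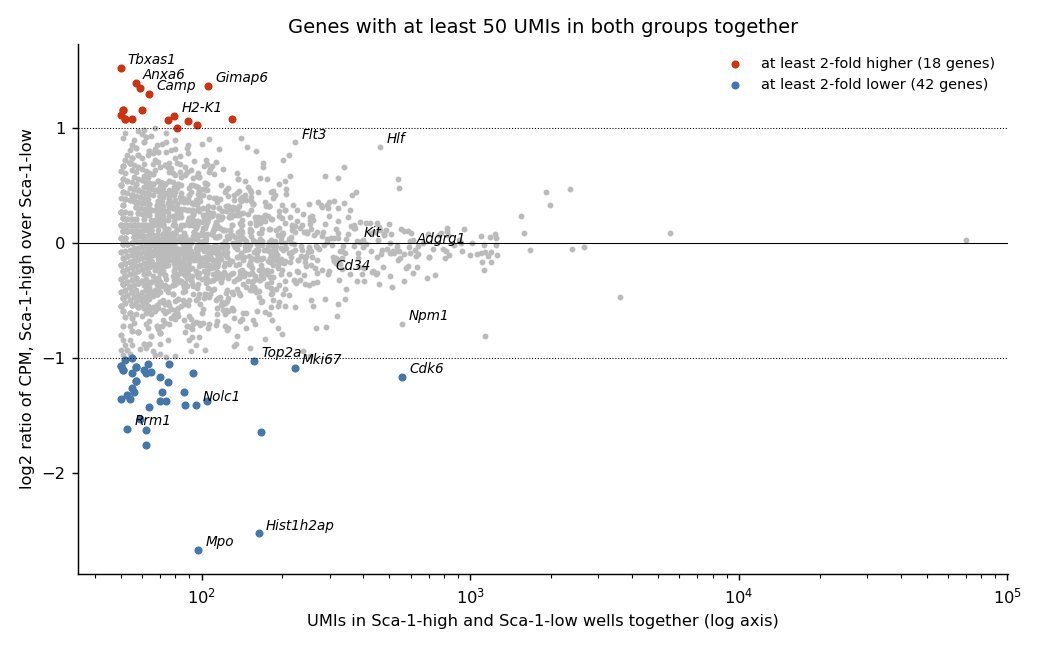
Log2 ratio of CPM, Sca-1-high over Sca-1-low, against the UMIs of both groups together (log axis) for 2008 genes, 1 point a gene, with dotted lines at 2-fold. The 42 lower genes (blue) reach further from 0 than the 18 higher genes (red), and Cdk6 stands out among them for its number of UMIs.

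The gene furthest below 0 was Mpo (chr11:87793581-87804413, plus strand), which encodes myeloperoxidase, the granule enzyme of neutrophils and their precursors. Mpo gave 12 UMIs in the Sca-1-high wells, 96 in the Sca-1-middle wells and 85 in the Sca-1-low wells. It was seen in 6, 16 and 22 wells of these groups, with a median of 0, 1 and 1 UMIs a well and at most 4 in a Sca-1-high and 14 in a Sca-1-low well. The low and middle groups were thus alike in CPM (308 each) and the Sca-1-high wells stood below both, at 48.5 CPM, a log2 ratio of -2.67 (-3.67 to -1.79) against the Sca-1-low wells. All 4 plate rows had lower Mpo in the Sca-1-high wells, with log2 ratios from -2.84 to -1.63. When each well was thinned to 2000 UMIs, so that depth was equal, Mpo was found in 0 Sca-1-high and 13 Sca-1-low wells. For scale, Mpo was at 15.0 CPM in the T lymphocytes and 9.00 CPM in the erythroblasts of the same plate, cell types not known for making it.

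The myeloid priming genes, counted here with Mpo among them, were split in direction. Of 20 such genes 7 were measured, of which 1 (Mpo) was at least 2-fold lower and 0 at least 2-fold higher, and their median log2 ratio was 0.05 against -0.04 over all genes. Of the 7, 4 lay above 0 and 3 below. Over all measured genes 2.09% were at least 2-fold lower and 45.7% lay above 0. Plac8, a gene of granulocyte and monocyte progenitors, had 93 UMIs in the Sca-1-high and 173 in the Sca-1-low wells (log2 ratio -0.74), and Prtn3 76 and 104 (-0.29). Spi1, the gene of the transcription factor PU.1, had 60 and 42 UMIs (0.67), and Lyz2, the gene of lysozyme, 91 and 86 (0.24). Summed with Mpo included, the myeloid priming genes had a log2 ratio of -0.25 (-0.43 to -0.08). Ccl9, a chemokine gene of myeloid cells, had 14 UMIs in 9 Sca-1-high wells and 48 in 18 Sca-1-low wells (-1.62, -2.59 to -0.74), lower in 4 of 4 plate rows.

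Lymphoid priming genes were mostly higher in the Sca-1-high wells. Of 22 genes 10 were measured, with 1 (Lsp1) at least 2-fold higher, 0 at least 2-fold lower, 8 above 0 and a median log2 ratio of 0.40. Of all measured genes 0.896% were at least 2-fold higher and 45.7% lay above 0, and a count of 1 is a single gene. Flt3, the receptor whose ligand drives the lymphoid-primed progenitors, had 138 UMIs in 26 Sca-1-high wells, 145 in 25 Sca-1-middle wells and 84 in 24 Sca-1-low wells. The Flt3 log2 ratio was 0.87 (0.47 to 1.28), while nearly the same number of wells carried it. By plate row it ran from 0.08 in row K, with 27 and 28 UMIs, to 1.20 in row N, and it was 0.37 with wells thinned to 2000 UMIs and 0.56 within parts of the c-Kit ranking. Lsp1, a leukocyte actin-binding protein gene, had 62 UMIs in 25 Sca-1-high and 34 in 19 Sca-1-low wells (1.03, 0.40 to 1.67), and 0.92 without the wells that stand apart. Dntt, the gene of the enzyme that adds untemplated bases at antigen receptor joints, had 74, 190 and 61 UMIs in the Sca-1-high, middle and low groups, so that the middle group was the highest. Ikzf1, which encodes the lymphoid regulator Ikaros, had 76 and 62 UMIs in the outer groups (0.45). Over the list the sums were 695, 904 and 572 UMIs, and the summed log2 ratio between the outer groups was 0.44 (0.28 to 0.60). It lay between 0.02 and 0.80 in the 4 plate rows, and at 0.14 when the groups were compared within equal parts of the c-Kit ranking. The sum depends on the members counted: over the list as first drawn up these values were 0.22 and, within parts of the c-Kit ranking, -0.0027, where the direction turns. The counts past each fold and the median given above also rest on the 22 members kept. Those over the 23 members first drawn up are not reported here.

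**Figure D3:**
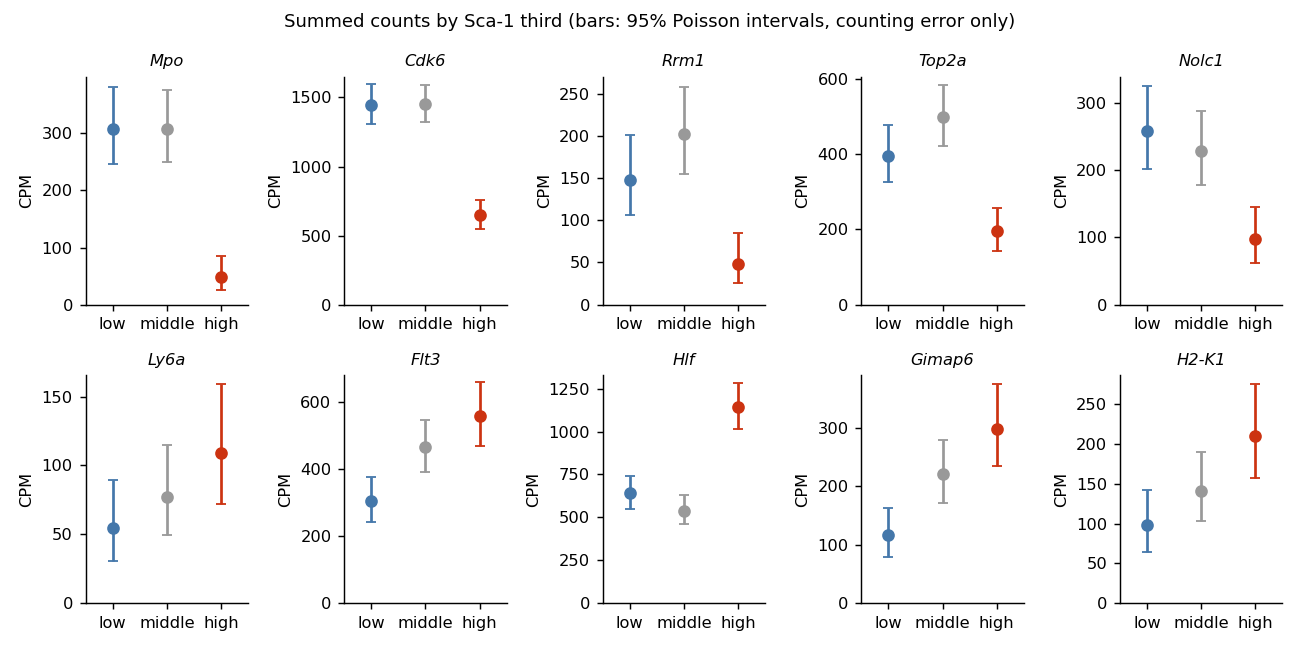
CPM of 10 genes in the Sca-1-low, middle and high groups (points), with 95% exact Poisson intervals for counting error only. Flt3, Gimap6 and H2-K1 ascend over the groups; Mpo, Cdk6, Rrm1, Top2a and Nolc1 are low in the Sca-1-high group alone and Hlf is high in it alone.

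Genes of DNA replication were lower in the Sca-1-high wells. Of 30 S phase genes 14 were measured: 0 were at least 2-fold higher and 4 at least 2-fold lower, 9 were at least 1.5-fold lower, and 13 of 14 lay below 0, with a median log2 ratio of -0.83 against -0.04 over all genes. Among all measured genes 2.09% were at least 2-fold and 8.62% at least 1.5-fold lower. Those 4 genes were Rrm1, which encodes the large subunit of ribonucleotide reductase, Hells, a chromatin remodeller of replicating cells, Pola1, the catalytic subunit of the polymerase that primes DNA synthesis, and Cdca7, a partner of Hells. Rrm1 gave 12 UMIs in 7 Sca-1-high wells, 63 in 20 Sca-1-middle wells and 41 in 12 Sca-1-low wells, a log2 ratio of -1.61 (-2.68 to -0.66). Hells had 15, 68 and 41 UMIs in the same order (-1.29), Pola1 20, 54 and 50 (-1.16) and Cdca7 27, 87 and 66 (-1.13). In CPM, Rrm1, Hells and Cdca7 were higher in the middle than in the low group, and Pola1 was not. When wells were thinned to 2000 UMIs Pola1 was found in 5 Sca-1-high and 4 Sca-1-low wells and its log2 ratio was 0.58. So few wells cannot decide its direction at equal depth. The Pola1 ratio lay below 0 under 19 of 20 alternatives and above 0 under 1, the thinned one. Without K1 Cdca7 was at -0.92, short of the 2-fold.

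The promoters of these 4 genes are shown because they are the S phase genes past the 2-fold. E2F transcription factors are known to drive many genes of the S phase and bind sites such as TTCCCGC. This motif was chosen after the values were seen and was searched on both strands in the RefSeq window from 250 bases before to 50 after the start site (build GRCm38.p6, strand of the gene). In the sequences below, in lower case, capitals mark TTCCCGC or its reverse complement GCGGGAA. The windows lie at chr7:102441445-102441744 (plus strand) for Rrm1, chr19:38930740-38931039 (plus strand) for Hells, chrX:93632106-93632405 (minus strand) for Pola1 and chr2:72475969-72476268 (plus strand) for Cdca7.
Rrm1: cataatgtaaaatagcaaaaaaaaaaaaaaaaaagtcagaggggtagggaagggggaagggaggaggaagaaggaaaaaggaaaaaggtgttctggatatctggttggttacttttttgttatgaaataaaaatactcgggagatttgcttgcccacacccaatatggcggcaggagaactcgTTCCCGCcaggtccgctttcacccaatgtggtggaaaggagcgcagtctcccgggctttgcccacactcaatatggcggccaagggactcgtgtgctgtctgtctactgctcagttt
Hells: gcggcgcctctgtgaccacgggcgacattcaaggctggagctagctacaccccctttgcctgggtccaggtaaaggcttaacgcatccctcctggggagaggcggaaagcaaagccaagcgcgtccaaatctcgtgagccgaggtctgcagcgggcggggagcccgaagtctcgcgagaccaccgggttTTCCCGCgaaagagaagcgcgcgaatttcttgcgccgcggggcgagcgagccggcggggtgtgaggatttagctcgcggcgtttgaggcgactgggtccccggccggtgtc
Pola1: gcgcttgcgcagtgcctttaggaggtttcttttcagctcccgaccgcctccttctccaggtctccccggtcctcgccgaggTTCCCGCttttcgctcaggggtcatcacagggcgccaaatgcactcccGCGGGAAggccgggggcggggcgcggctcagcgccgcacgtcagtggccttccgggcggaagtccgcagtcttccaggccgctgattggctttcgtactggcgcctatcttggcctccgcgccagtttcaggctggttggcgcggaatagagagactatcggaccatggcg
Cdca7: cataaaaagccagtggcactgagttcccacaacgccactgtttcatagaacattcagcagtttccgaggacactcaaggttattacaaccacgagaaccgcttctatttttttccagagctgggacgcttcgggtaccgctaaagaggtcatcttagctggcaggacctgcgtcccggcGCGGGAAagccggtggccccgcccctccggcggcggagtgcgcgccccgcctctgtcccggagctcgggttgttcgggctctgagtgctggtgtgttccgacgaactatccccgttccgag
The match began 67 bases before the start site in Rrm1, 61 in Hells and 71 in Cdca7, and Pola1 held 1 on each strand, the first of them 169 bases before the start. Of the 13 measured S phase genes with a RefSeq window 6 held the motif (46.2%), against 1429 of 27025 genes (5.29%) and 1511 of 32851 windows (4.60%). Among measured members of the other lists searched, it was in 0 of 5 G2 and mitosis genes, 1 of 8 nucleolar ribosome biogenesis genes and 1 of 10 genes of MHC class I and peptide loading. A match is a description of the sequence and no evidence of binding in these cells.

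Summed over the list, S phase genes gave 472 UMIs in the Sca-1-high, 1425 in the Sca-1-middle and 903 in the Sca-1-low wells, a log2 ratio of -0.78 (-0.94 to -0.62) between the outer groups. A single Sca-1-high well had between 0.0329% and 0.518% of its UMIs on these genes (median 0.101%), a Sca-1-low well between 0.0397% and 0.749% (median 0.162%) and a Sca-1-middle well up to 1.03% (median 0.182%). The wells richest in S phase RNA in the middle and low groups lay above every Sca-1-high well, while most wells of the groups overlapped. Above the median share of all progenitor/stem wells lay 12 of 32 Sca-1-high, 19 of 31 Sca-1-middle and 16 of 32 Sca-1-low wells. The plate rows did not move together: the log2 ratio was -2.23 in row K, -0.56 in row L and -1.26 in row M but 0.48 in row N. It was -0.59 without K1, which had the highest share of its group (0.749%), and -0.39 without row K.

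For the G2 and mitosis genes the difference was smaller and less even. Of 34 genes 6 were measured, 3 of them at least 2-fold lower and 0 higher, with a median log2 ratio of -0.68. Of all measured genes 2.09% were at least 2-fold lower. Mki67, which encodes the proliferation antigen Ki-67, had 66 UMIs in 17 Sca-1-high wells, 110 in 23 Sca-1-middle and 156 in 27 Sca-1-low wells (-1.08, -1.52 to -0.66), but 53 of the 156 came from 1 well. Top2a, the gene of DNA topoisomerase II alpha, had 48, 155 and 109 UMIs in the same order (-1.02), with 37 of the 109 in 1 well, and Ncapd2, a condensin subunit, 19, 54 and 44 (-1.05). Without the top well of each group Mki67 was at -0.87, Top2a at -0.61 and Ncapd2 at -0.95, all short of the 2-fold. The summed list had 520, 919 and 788 UMIs and a log2 ratio of -0.44 (-0.60 to -0.28). Row by row it was -0.74 in K, 1.00 in L, -0.52 in M and below that in N, so row L went the other way. It was -0.66 without the wells that stand apart, which left 44 of the 66 Mki67 UMIs of the Sca-1-high group, and -1.19 with 24 against 24 wells. It was -0.13 without row N, -0.19 with scran size factors and -0.20 with CPM averaged over wells. By share of UMIs on this list, 12 of 32 Sca-1-high and 16 of 32 Sca-1-low wells lay above the median of all progenitor/stem wells. In the Sca-1-middle group 19 of 31 did.

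Replication-dependent histone genes rested on few wells. Hist1h2ap, an H2A gene with near-identical copies in its cluster among which reads may be shared, had 22, 131 and 141 UMIs in the Sca-1-high, middle and low groups (-2.52), but 78 of the 141 lay in 1 well and it was higher in 2 of 4 plate rows and lower in the other 2. Hist1h2bc, named after its values were seen, had 13, 15 and 49 UMIs in the same order (-1.76), in 6 wells of each outer group.

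Cdk6, also singled out after its values were seen, had the most UMIs of all genes past the 2-fold. It encodes the cyclin D-dependent kinase that is known to hold back or permit the exit of stem cells from quiescence. Cdk6 (chr5:3341485-3531008, plus strand) gave 160 UMIs in 30 Sca-1-high wells, 453 in 29 Sca-1-middle wells and 399 in 32 Sca-1-low wells. The median well held 4, 11 and 12 UMIs in that order, and the maximum was 15 in a Sca-1-high and 37 in a Sca-1-low well. Nearly every well of each group carried the transcript, and the wells differed in its amount. Its log2 ratio was -1.16 (-1.43 to -0.89), between -1.69 and -0.69 in the 4 plate rows, -1.11 without the wells that stand apart and -1.23 without K1. An exon of Gm17590 overlaps Cdk6 on the other strand, as do Gm11505 for Mpo and Gm42962 for Tbxas1, and whether strand was used in counting is not given.

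**Figure D4:**
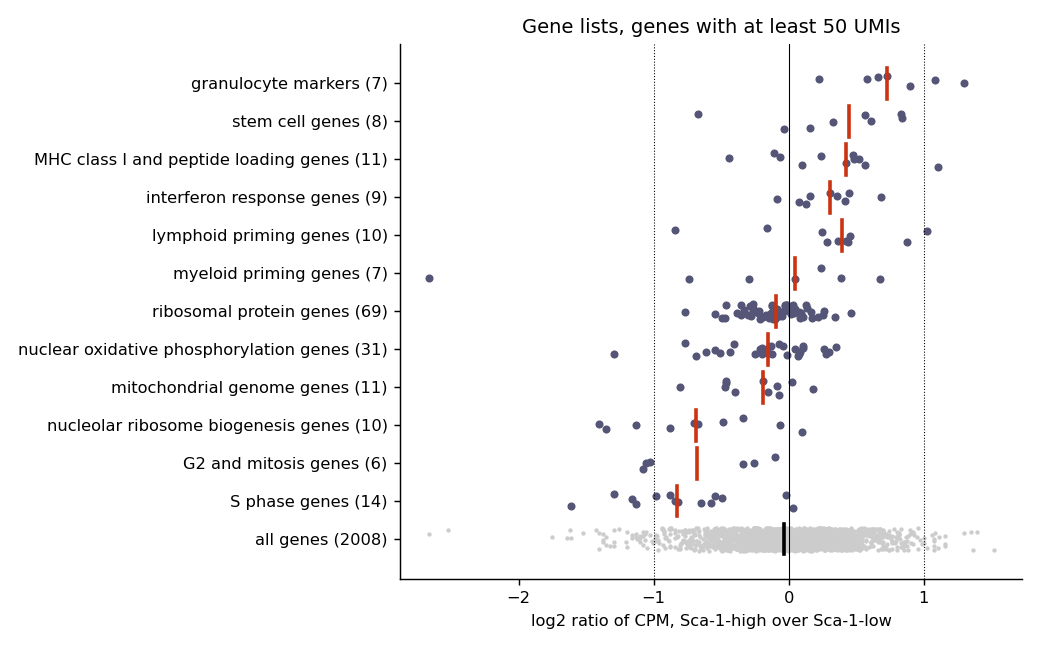
Log2 ratio of CPM, Sca-1-high over Sca-1-low, for the measured genes of 12 lists (points, 1 a gene) and of all 2008 genes, with vertical bars at the medians and the number of genes in brackets. The S phase, G2 and mitosis and ribosome biogenesis medians (-0.83, -0.68 and -0.69) lie furthest below that of all genes (-0.04), and the stem cell and granulocyte medians (0.44 and 0.73) furthest above.

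Genes of ribosome production were lower as well. Of 26 nucleolar ribosome biogenesis genes, 10 were measured, 3 at least 2-fold lower, 6 at least 1.5-fold lower and 0 higher at either fold, with a median log2 ratio of -0.69. The shares of all measured genes were 2.09% at least 2-fold and 8.62% at least 1.5-fold lower. Nolc1, a chaperone of small nucleolar particles, had 24 UMIs in 15 Sca-1-high, 71 in 20 Sca-1-middle and 71 in 24 Sca-1-low wells (-1.41, -2.14 to -0.72), with 23 of the last 71 in 1 well. Polr1a, the large subunit of RNA polymerase I, had 14 and 40 UMIs in the outer groups (-1.36), and Nop10, a small protein of the pseudouridylation complex, 18 and 44 (-1.13). Without K1 Nolc1 was at -0.97 and Polr1a at -0.87, both short of the 2-fold. The abundant Npm1, which encodes nucleophosmin, had 198, 298 and 359 UMIs in the Sca-1-high, middle and low groups (-0.70, -0.96 to -0.45), and it was lower in 4 of 4 plate rows. Ncl, the gene of nucleolin, had 112, 145 and 175 (-0.49), with small RNA genes inside its exons. A well had a median of 0.261%, 0.320% and 0.357% of its UMIs on this list from the high through the middle to the low group, and 11 of 32, 16 of 31 and 20 of 32 wells lay above the median of all 95. The summed log2 ratio of -0.57 (-0.71 to -0.43) was -1.30, -0.20, -0.96 and 0.04 in rows K, L, M and N, and -0.42 without K1. By contrast the ribosomal proteins themselves, of which 69 of 79 were measured, had 0 genes past the 2-fold and a median of -0.09.

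Further genes named among the 12 lowest had few UMIs each. Hmgb3, a chromatin protein gene, had 14 and 45 UMIs in the Sca-1-high and Sca-1-low wells (-1.53), Eno1, a glycolytic enolase, 16 and 48 (-1.43), Ipo5, a nuclear import receptor, 22 and 65 (-1.40) and Zfp422, a zinc finger protein, 19 and 55 (-1.37). The processed pseudogene Gm7363, whose reads may come from its parent gene, had 27 and 78 (-1.37) and the lamin B1 gene Lmnb1 18 and 52 (-1.37). In each of these 6 all plate rows lay below 0. Of the 65 Ipo5 UMIs 20 were in 1 well, and Lmnb1 was at -0.97 without K1.

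Stem cell genes leaned the other way. Of 25 genes 8 were measured, with 0 past the 2-fold in either direction, 3 at least 1.5-fold higher, 1 at least 1.5-fold lower and a median log2 ratio of 0.44. Over all measured genes 6.77% were at least 1.5-fold higher and 8.62% at least 1.5-fold lower. Hlf, a transcription factor gene of stem cells, gave 283 UMIs in 32 Sca-1-high wells, 168 in 26 Sca-1-middle wells and 177 in 31 Sca-1-low wells. The median well held 7, 4 and 5 Hlf UMIs in that order, and the log2 ratio of 0.84 (0.56 to 1.11) was above 0 in 4 of 4 plate rows, from 0.26 to 1.33. Mllt3, a chromatin reader gene, had 35, 25 and 22 UMIs in the same order (0.83) and Hoxa9, a homeobox gene, 78, 44 and 57 (0.61). Gata2, which encodes a transcription factor of stem cells and of the mast cell lineage, was the lowest member, with 31 UMIs in 15 Sca-1-high and 55 in 23 Sca-1-low wells (-0.67). Adgrg1, the most abundant marker of the population, had 277 and 316 UMIs (-0.03, -0.27 to 0.21), and Kit had 180 and 198 (0.02, -0.28 to 0.32). Summed, the list had 1137, 974 and 989 UMIs from high through middle to low, so the middle group was the lowest by CPM. Of the Sca-1-high wells 20 of 32 lay above the median share of all progenitor/stem wells, against 17 of 32 Sca-1-low wells. In the Sca-1-middle group 10 of 31 did. The median well had 0.457%, 0.327% and 0.428% of its UMIs on the list from high through middle to low, so the outer groups largely overlapped. The summed log2 ratio was 0.36 (0.24 to 0.48), above 0 in all 4 plate rows but mostly from row K (0.89, against 0.08 to 0.23 in the others), 0.17 without row K and 0.49 within equal parts of the c-Kit ranking.

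**Figure D5:**
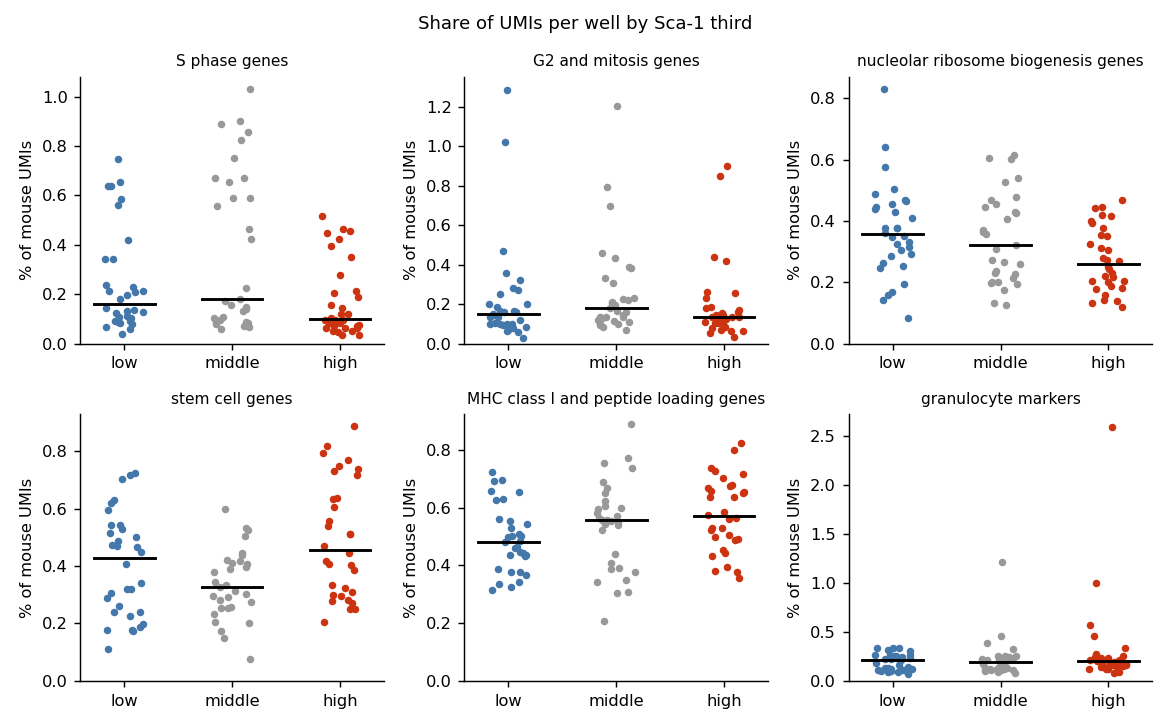
Percent of the mouse UMIs of each well on 6 gene lists, by group (Sca-1-low, middle and high), with 1 point a well and bars at the medians. All groups overlap; the Sca-1-high median is the lowest for S phase (0.101%) and ribosome biogenesis genes (0.261%), and a single Sca-1-high well, K5, reaches 2.60% on granulocyte markers.

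Among genes of MHC class I and peptide loading, which display cytosolic peptides to T cells and are interferon-inducible, 11 of 16 were measured, 1 was at least 2-fold higher and 0 lower, with a median log2 ratio of 0.42. The share at least 2-fold higher over all measured genes was 0.896%, and a count of 1 is a single gene. H2-K1, a classical class I heavy chain (chr17:33996017-34000347, minus strand), had 52 UMIs in 24 Sca-1-high, 44 in 21 Sca-1-middle and 27 in 17 Sca-1-low wells. Its log2 ratio was 1.10 (0.41 to 1.83), above 0 in all plate rows although only 0.01 in row N, and 0.99 without the wells that stand apart, just short of the 2-fold. H2 genes resemble each other, and how reads common to them were counted is not given. Tap1 and Tap2, the chains of the peptide transporter, had 56 against 45 and 53 against 40 UMIs (0.47 and 0.56). B2m, the light chain, had 793 against 751 (0.24, 0.09 to 0.38), and Psmb9, a subunit of the immunoproteasome, 27 against 41 (-0.44). The summed log2 ratio was 0.21 (0.10 to 0.32), and -0.13 in row N. Of the Sca-1-high wells 18 of 32 lay above the median of the 95 wells, against 10 of 32 Sca-1-low wells.

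The interferon response genes, which leave out Ly6a, held 29 genes with 9 measured, 0 past the 2-fold and 1 at least 1.5-fold higher, with a median log2 ratio of 0.30 and 8 of 9 above 0. Over all measured genes 6.77% were at least 1.5-fold higher and 45.7% lay above 0. Samhd1, which encodes a nucleotide hydrolase that restricts viruses, had 62 and 43 UMIs in the Sca-1-high and Sca-1-low wells (0.69), Ifitm1, a membrane restriction factor gene, 89 and 73 (0.44), and Ifi203 145 and 126 (0.36). Their sum had a log2 ratio of 0.31 (0.16 to 0.46), with all 4 plate rows above 0 (0.09 to 0.60), and 24 of 32 Sca-1-high against 13 of 32 Sca-1-low wells lay above the median share of all 95. The middle group had a lower sum than the low group (2272 against 2591 CPM), and with 47 against 47 wells the log2 ratio was 0.11.

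The gene at the top of the ranking was Tbxas1, which encodes thromboxane synthase, with 36 UMIs in 21 Sca-1-high, 17 in 13 Sca-1-middle and 14 in 13 Sca-1-low wells (1.52, 0.60 to 2.53). Gimap6 (chr6:48701582-48708225, minus strand), of a family of immune GTPases, gave 74 UMIs in 28 Sca-1-high wells, 69 in 26 Sca-1-middle wells and 32 in 19 Sca-1-low wells, with at most 9 and 3 in a well of the outer groups. The Gimap6 log2 ratio was 1.37 (0.75 to 2.01), above 0 in 4 of 4 plate rows (0.84 to 1.78), 1.27 without the wells that stand apart and 1.39 without the top well of each group. Anxa6, a membrane-binding annexin gene, had 40 and 17 UMIs in the outer groups (1.39), Ddi2, a protease gene that overlaps Rsc1a1 on its strand, 41 and 18 (1.35), Opa1, which encodes a fusion protein of the inner mitochondrial membrane, 34 and 17 (1.16), and Kctd12 33 and 17 (1.12). Wfdc17 had 34, 4 and 18 UMIs in the high, middle and low groups (1.08), so the middle group lay below both. Acadm, with 34 and 18 UMIs, and Shisa5, with 85 and 45, tied with it in log2 ratio, and the twelfth place went by alphabet. Tbxas1, Anxa6, Gimap6, Ddi2, Opa1 and Kctd12 were still past the 2-fold without the wells that stand apart, and Wfdc17, like H2-K1, was at 0.99.

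The other 4 of the 12 highest lay further below it without those wells. Itgb2, the common beta chain of leukocyte integrins, had 34 and 17 UMIs (1.16), 10 of the 34 in 1 well, and Fryl 40 and 20 (1.16), 12 of the 40 in 1 well. Camp and Mmp8, granule protein genes of neutrophils, had 44 and 20 UMIs (1.30) and 36 and 19 (1.08). Without the wells that stand apart the log2 ratios were 0.69 for Itgb2, 0.73 for Fryl, 0.91 for Camp and 0.54 for Mmp8. These wells carried granulocyte transcripts: 2.60% of the UMIs of K5 and 0.995% of those of M14 were on 8 granulocyte markers, against at most 0.339% in a Sca-1-low well. All 8 markers were present in both groups, with sums of 708 and 502 UMIs, 7 were measured, and their median log2 ratio was 0.73. The summed log2 ratio was 0.65 (0.49 to 0.82) over all wells and 0.13 without those that stand apart, while the median well had 0.203% in the Sca-1-high and 0.217% in the Sca-1-low group.

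Markers of further cell types were given the same description. The 7 erythroblast markers, 0 of them at 0 in either group, had 3650 and 4123 UMIs and a summed log2 ratio of -0.02, which was 0.27 without the wells that stand apart and 0.66 without plate row L, which holds L11. They took 0.637% to 12.1% of the UMIs of a Sca-1-high well (median 1.26%) and 0.608% to 16.9% of a Sca-1-low well (median 1.04%). The 7 B lymphocyte markers gave 71 and 57 UMIs, of which Ighm made up 53 and 44, and Pax5 was at 0 in both groups. T lymphocyte markers gave 18 and 5 UMIs over 8 genes (log2 ratio 2.01, 0.52 to 3.79), with Cd3d, Cd3g and Cd8a at 0 in both. Innate lymphoid markers gave 13 and 10 UMIs, and Il1rl1 and Zbtb16 were at 0 in the Sca-1-high wells. The dendritic cell markers had 170 and 105 UMIs (0.85, 0.49 to 1.22), of which Flt3 made up 138 and 84, while Siglech and Cd209d were at 0 in both groups. Mast cell and basophil markers had 36 and 69 UMIs (-0.78, -1.40 to -0.18), of which Gata2 made up 31 and 55 and Cpa3 5 and 12, and Prss34 was at 0 in both. The part of these cell types in the differences above was not tested beyond leaving out the wells named.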

How the data were processed

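Single cells of 5 populations of 1 mouse, index-sorted into 1 plate, were measured by CEL-seq2 with ERCC spike-ins. The authors deposited UMI counts per gene and well, whole numbers that are not normalized, made with *scPipe* (alignment, assignment to exons, demultiplexing and collapsing of UMIs). For the aligner version, genome build, annotation and strand setting, values were not given in the sources used here, while the labels describe read 1 in 2 ways that contradict each other. Well names tie columns to samples, and 9 columns without a matching sample were left out. Symbols and coordinates are from GENCODE M21 (GRCm38), and the authors may have used another build.

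The 95 progenitor/stem wells were ranked by the Sca-1 index value in the labels, and the counts of the highest 32 and lowest 32 were summed over 19829 mouse genes. CPM was computed on mouse UMIs. Ratios have 95% exact conditional binomial intervals and sums exact Poisson intervals, for counting error only. Sums under 3 UMIs were set to 3 for ranking. The median well held 7959 mouse UMIs, so genes under 50 UMIs in both groups together have wide intervals and were not counted. Cells are not replicates, so there is no test. Named genes are Ly6a, the 12 highest and 12 lowest log2 ratios among measured genes detected in 25% or more of the wells of whichever group was higher, and, from each of 27 gene lists, the members past the 2-fold and the 4 with the most UMIs; others serve as examples of a list, and those chosen after their values were seen are named as such. The members, lists and motif were chosen with earlier results of these data known. Some genes of the lists and of the 12 lowest are not reported here. They were taken out of the lists once results were known, which moved the log2 ratio of the lymphoid priming sum from 0.22 to 0.44 (within c-Kit strata from -0.0027 to 0.14) and that of the stem cell sum from 0.38 to 0.36. Counts over all genes include them, while the counts and medians of the lists do not. Alternatives changed the number of wells, their weighting, thinning, normalization (*scran* 1.30.0 size factors, *edgeR* 4.0.16 TMM), denominator, filters, quality limits, plate rows, and strata of c-Kit, size and depth. Python 3.11.15 with numpy 2.4.6, pandas 2.3.3, scipy 1.17.1 and matplotlib 3.10.9 and R 4.3.3 were used, and the calculations were tested on simulated counts.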

Additional observations from a re-analysis of the deposited data

How the results depend on the processing

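With 1 mouse there is no replicate, and the depth of a well limits single genes to a few UMIs. No paired analysis was possible because the replicate numbers are only the order of the samples and no test was made. Scaling moved the median log2 ratio of all measured genes by less than 0.1. Summed S phase, G2 and mitosis, ribosome biogenesis and myeloid priming genes lay below 0, and stem cell, interferon and MHC class I genes above 0, under all 20 alternatives run for them. These alternatives share most wells, and none took a plate row alone. In row N S phase genes were at 0.48, ribosome biogenesis genes at 0.04 and MHC class I genes at -0.13. In row L G2 and mitosis genes were at 1.00. Stem cell, interferon and myeloid priming genes kept their direction in all 4 rows. The cause of the changes below was not tested.

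The count of genes at least 2-fold higher (18) became 3 with wells thinned to 2000 UMIs, 11 without wells beyond 3 median absolute deviations in quality, 10 without plate row M, 8 without wells with over 3% erythroblast markers (chosen after seeing the data), and 136 at 1.5-fold. With a minimum of 1, 20 or 100 UMIs it was 727, 208 or 2 (4.6%, 4.10% or 0.25% of the genes counted). The count at least 2-fold lower (42) became 2 with thinned wells, 27 with 24 against 24 wells and 16 under the quality limit. It was 21 without row K, 25 without row M and 173 at 1.5-fold, and 633, 232 or 6 (4.005%, 4.57% or 0.75%) with those minimums. Fewer genes reach 50 UMIs when wells are thinned or left out, so shares are given too. The higher genes were 0.896% of 2008 as reported and 1.07% of 281 with thinned wells. They were 0.879% under the quality limit, 0.735% without row M and 0.426% without the wells high in erythroblast markers. The lower genes were 2.09% of 2008 as reported and 0.712% of 281 with thinned wells. They were 2.07% with 24 against 24 wells, 1.28% under the quality limit, 1.51% without row K and 1.84% without row M.

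Ly6a (1.01) lay between 0.36 (47 against 47 wells) and 2.21 (24 against 24 wells), and at 0.55 without wells beyond the quality limit. With 24 against 24 wells lymphoid genes were at 0.70 and G2 and mitosis genes at -1.19. With 47 against 47 wells stem cell genes were at 0.24, interferon genes at 0.11, MHC class I genes at 0.10 and lymphoid genes at 0.63. Within parts of the c-Kit ranking stem cell genes were at 0.49 and lymphoid genes at 0.14. Without row K stem cell genes were at 0.17 and lymphoid genes at 0.61. Lymphoid genes were at 0.61 without well K1 (chosen after seeing the data), stem cell genes at 0.20 with thinned wells, and myeloid genes at -0.48 without wells beyond the quality limit. G2 and mitosis genes were at -0.20 with CPM averaged over wells, -0.19 with *scran* factors, -0.85 without row L, -0.13 without row N and -0.66 without the wells high in erythroblast markers.

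Reversals of direction are listed here only for results whose interval leaves out 0. Ribosomal protein genes reversed to 0.0111 with 24 against 24 wells. Hba-a2 reversed to 0.25 under the quality limit, 0.67 without row L, 0.22 without the wells high in erythroblast markers and 0.34 without the top wells. Thinning reversed Mcm5 (0.15) and Pola1 (0.58), and the quality limit Retnlg (-0.13) and S100a9 (-0.0669). Results whose interval holds 0 changed sign as well and are not all listed, such as Dntt, below 0 under 6 of 20 alternatives.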

Other observations

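Gene groups of energy metabolism were slightly lower in the Sca-1-high wells. Of 72 nuclear oxidative phosphorylation genes 31 were measured, 1 was at least 2-fold lower (Cox5a, a subunit of cytochrome c oxidase, with 19 and 52 UMIs) and 0 higher, with a median log2 ratio of -0.15. This count of 1 in 31 is near the 2.09% of all measured genes that were at least 2-fold lower. Of the mitochondrial genome genes 11 were measured, with 0 past the 2-fold and a median of -0.19, and their sum was at -1.60 in plate row L but at 0.36 in row N. Of 13 glycolytic enzyme genes 3 were measured, and the sum of 274 against 406 UMIs had a log2 ratio of -0.41 (-0.64 to -0.18), with 0.14 in row N.

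Erythroid and megakaryocyte priming genes had 4 measured members, 0 past the 2-fold and a median log2 ratio of -0.17, but a summed log2 ratio of 0.35, because Car2, which encodes a carbonic anhydrase, made up 307 of 501 UMIs in the Sca-1-high and 233 of 438 in the Sca-1-low wells. Cytokine receptor genes had 5 measured, 0 past the 2-fold and a median of 0.05. Of the 9 measured stem and progenitor surface genes 0 were past the 2-fold, and the median was 0.15, with Cd34 at 126 and 169 UMIs (-0.27, -0.61 to 0.08). Among the sort antigen genes Ptprc, whose product includes the B220 form of CD45, had 165 and 123 UMIs (0.58, 0.24 to 0.93). Cell cycle inhibitors had 3 measured genes and a median of 0.16, immediate early genes 2 and a median of 0.02, and of the Ly6 family only Ly6e was measured, with 208 and 219 UMIs (0.08). The 6 progenitor/stem cell markers, 5 of them measured, had 1020 and 961 UMIs and a summed log2 ratio of 0.24.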
